A study of Mus musculus with 3 samples.

Results

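Cytochrome c oxidase, complex IV of the respiratory chain, was examined through 10 nuclear genes for its muscle and ubiquitous subunit isoforms and their close relatives: Cox4i1, Cox4i2, Cox6a1, Cox6a2, Cox6b1, Cox7a1, Cox7a2, Cox7a2l, Cox8a and Cox8b. They were taken by gene symbol, and every probe set annotated with 1 of these symbols alone was used. That gave 18 probe sets of the 45101 on the array, and 10 genes of the 18193 that could be named. Each gene was followed through its brightest probe set, the one with the highest mean log2 signal, and 6 of the genes had further probe sets that served as a check.

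Gastrocnemius, a mixed but mainly fast calf muscle, came from male C57BL/6J mice that were 6 weeks old when the diets began and ate them for 15 weeks. An age of 21 months stands in the sample labels instead. Control mice ate diet D12450B with 10 kcal% fat and 70 kcal% carbohydrate. HF mice ate the high-fat diet D12492 with 60 kcal% fat and 20 kcal% carbohydrate. HF+SFC mice ate D12492 to which sodium ferrous citrate, an iron salt, had been added at 0.023% by weight. Protein was 20 kcal% in every diet, so HF and Control differed in carbohydrate as well as in fat. Each group was hybridised as a mix of its animals on 1 Affymetrix mouse array, so the spread between mice was not measured and no test between groups was possible. The MAS5 signal is a linear brightness, scaled by the authors to a trimmed mean of 500.004 on every array, and is compared here only between arrays within a probe set.

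Complex IV passes electrons from cytochrome c to oxygen and pumps protons across the inner mitochondrial membrane. Its catalytic core is encoded by mitochondrial DNA, and the nuclear subunits surround that core, help it assemble and adjust its activity. Several nuclear subunits exist as a ubiquitous (L, liver) form and a heart and muscle (H) form from separate genes, and adult striated muscle uses the H forms. The core carries heme and copper, and heme is an iron-containing group.

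The 10 genes differed little between diets. On the brightest probe sets none was 1.5-fold or even 1.2-fold higher or lower in any of the 3 comparisons. Further probe sets passed 1.2-fold for Cox7a2 (1.21-fold in HF+SFC against HF) and for Cox7a2l (1.29-fold in HF and 1.23-fold in HF+SFC, against Control). A dim one of Cox8a was lower by more than 1.5-fold in each comparison. Of all 18193 genes, HF against Control put 17% at or above 1.5-fold upward and 12.2% downward, HF+SFC against HF 13.7% and 13.5%, and HF+SFC against Control 16.5% and 12.4%. Those shares rest mostly on dim genes. Of the 1044 genes whose mean signal was 5000 or more, only 0.479% moved upward and 0.383% downward by that much in HF against Control, 0.0958% and 0% in HF+SFC against HF, and 0.383% and 0.192% in HF+SFC against Control. At 1.2-fold the bright shares were 4.98% upward and 4.69% downward, then 2.87% and 2.2%, then 3.07% and 3.07% in the same order. Of the 10 cytochrome oxidase genes, 8 belong to this bright class, and Cox8a and Cox4i2 do not. A change of this size was thus rare in genes as bright as these, and its absence does not set these genes apart.

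**Figure D1:**
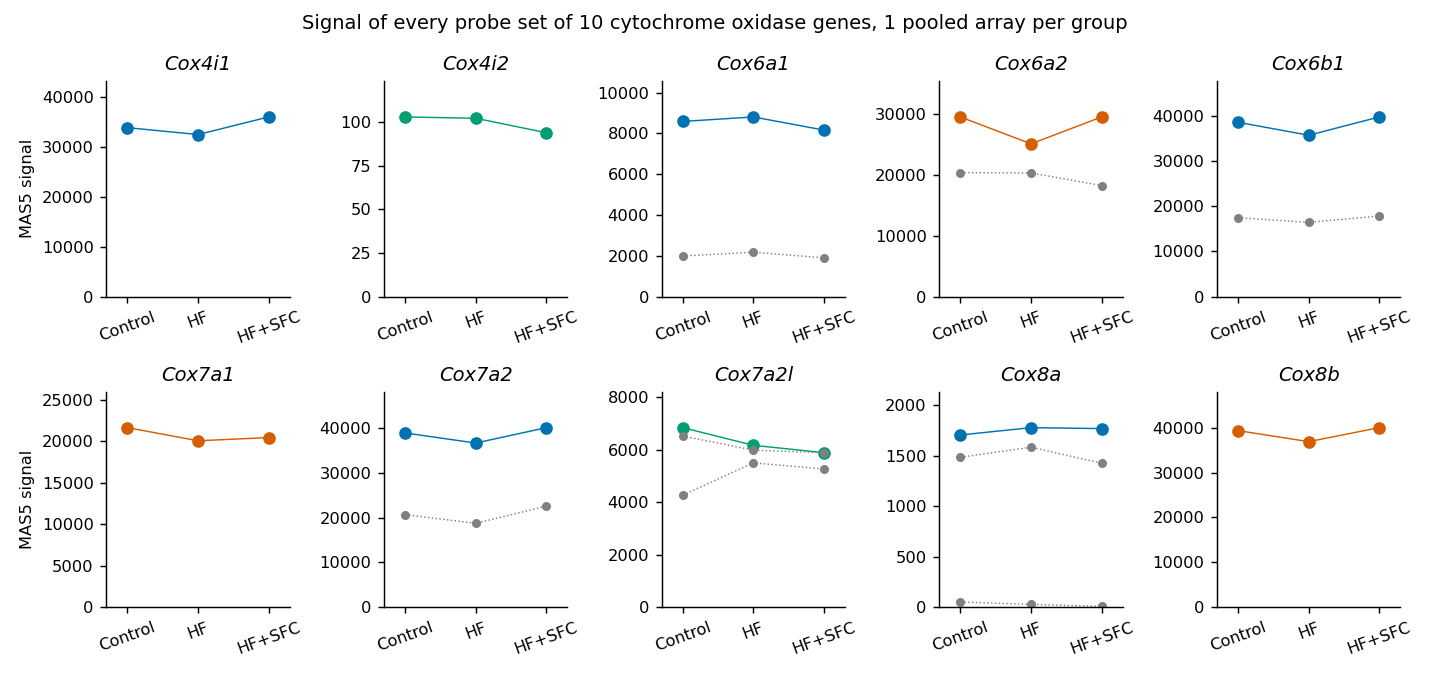
MAS5 signal (linear axis from 0, own scale in each panel) of every probe set of the 10 genes on the Control, HF and HF+SFC arrays, with 1 pooled array per group and no error bars. Coloured points are the brightest probe set (blue, ubiquitous subunit; orange, heart and muscle isoform; green, Cox4i2 or Cox7a2l) and grey points the others. Cox6a2 dips from 29526 to 25113 on the HF array and returns to 29534, while its other probe set stays near 20378 and ends at 18255.

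In HF against Control, the direction was mostly downward and small. On the brightest probe sets 8 genes were lower and 2, Cox6a1 and Cox8a, higher, and the log2 ratios ran from -0.23 to 0.06 around a median of -0.09 (0.940-fold). All 10 were lower when the arrays were centred on their medians, a step that also took the median of all genes from 0.01 to -0.08. The share of all genes lower after that step was not counted. Without centring, 49.3% of all genes and 59.8% of the bright genes were lower, with median log2 ratios of 0.01 and -0.03. The brightest genes of the array were lower still more often: of the 184 genes with a mean signal of 20000 or more, a limit chosen after the values were seen, 69% were lower and their median was -0.07. All 6 cytochrome oxidase genes in this class (Cox4i1, Cox6a2, Cox6b1, Cox7a1, Cox7a2 and Cox8b) were lower, with a median of -0.10, and 5 of them lay within the middle 50% of the class. Cox6a2 lay below it.

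In HF+SFC against HF, 6 genes were higher and 4 were lower. Their log2 ratios ran from -0.12 to 0.23 around a median of 0.07, but the median was -0.01, with 4 higher and 5 lower, after quantile normalization. Of all genes 51.4% were higher, of the bright genes 67.1% and of the 184 brightest 85.9%, where the median was 0.12. The same 6 genes that were brightest and lower in HF were the ones higher here, with a median of 0.14, and 4 of the 6 lay within the middle 50% of that class. These comparisons share the HF array, so a low HF signal enters both. Cox6a2 lay above that middle range and Cox7a1 below it.

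In HF+SFC against Control, 6 genes were higher and 4 were lower. Their log2 ratios ran from -0.22 to 0.09 around a median of 0.01. That median turned to -0.08 with median centring, where the median of all genes was also -0.08, and to -0.04 with quantile normalization. Of all genes 52.4% were higher, of the bright genes 59.7% and of the 184 brightest 81%. In each of the 3 comparisons all 10 genes lay within the middle 95% of the bright genes, which ran from -0.33 to 0.33, from -0.24 to 0.27 and from -0.28 to 0.28 on the log2 scale. Cox8a and Cox4i2 are dimmer than the bright genes, so that range does not match their signal. Beside these shares, nothing particular to the 10 genes was read from their counts.

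**Figure D2:**
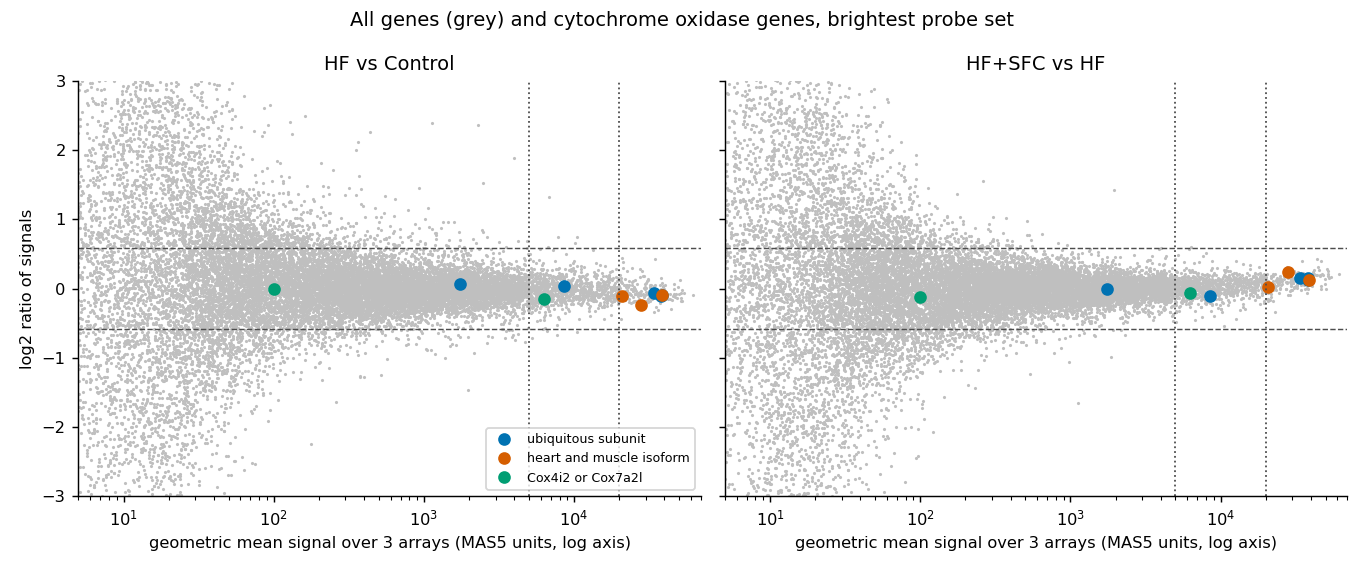
Log2 ratio of signals (vertical) against geometric mean signal over the 3 arrays (horizontal, log axis) for all named genes (grey) and the 10 cytochrome oxidase genes (coloured as before), for HF against Control and HF+SFC against HF. Dashed lines mark 1.5-fold and dotted lines signals of 5000 and 20000. The grey cloud narrows with signal and bends below 0 on the left and above 0 on the right at its brightest end, where 6 of the 10 genes lie. Quantile normalization, not drawn, takes the median of the 10 genes in HF+SFC against HF to -0.01.

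Cox6a2, the heart and muscle form of subunit VIa, had the largest change in HF against Control and in HF+SFC against HF. It is found in striated muscle and binds adenine nucleotides as part of the control of the enzyme. Its signal was 29526 on the Control array, 25113 on HF and 29534 on HF+SFC. The HF value was the low one, at 0.851-fold of Control, and HF+SFC stood 1.18-fold above HF and level with Control. The next brightest probe set of Cox6a2, a design that can bind several transcripts, read 20378, 20318 and 18255. It was level between Control and HF, and HF+SFC was the low array, at a log2 ratio of -0.15 to HF. The 2 probe sets thus disagree on both comparisons with HF, and the change of Cox6a2 rests on 1 of them.

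Cox6a1, the ubiquitous form of the same subunit, read 8583 on the Control array, 8802 on HF and 8159 on HF+SFC. HF was the high array and HF+SFC the low one, the reverse of Cox6a2. A further probe set of Cox6a1 kept this order, at 1985, 2174 and 1895, with log2 ratios of 0.13 and -0.20 in HF against Control and HF+SFC against HF. Set against Cox6a1, the Cox6a2 log2 ratio was 0.27 lower in HF against Control (a difference of -0.27, or 0.829-fold) and 0.34 higher in HF+SFC against HF (1.27-fold), with 0.07 left in HF+SFC against Control. Over the 4 combinations of probe sets, the HF against Control difference was below 0 in all 4, from -0.37 to -0.04, and the HF+SFC against HF difference was above 0 in 3, from -0.04 to 0.43.

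As a yardstick for these differences, the log2 ratios of the brightest and the next brightest probe set of the same gene were compared in 2456 genes with both above the 75th percentile of signal. Their difference had an SD of 0.26 in HF against Control, 0.23 in HF+SFC against HF and 0.22 in HF+SFC against Control. In the 287 genes with both probe sets at 5000 or more, the SD was 0.19, 0.17 and 0.13. The SD covers disagreement between probe sets of 1 array pair, not the spread between mice. How many of these genes lay past 1 SD was not counted, so passing it is a description and not a test. On the brightest probe sets the Cox6a2 to Cox6a1 difference passed the wider SD in both comparisons with HF. So did the brightest Cox6a2 probe set against the further Cox6a1 one (-0.37 and 0.43). No combination with the further Cox6a2 probe set passed it. In HF against Control the difference was inside the wider SD after quantile normalization (-0.23). It was also inside with the mean of all probe sets (-0.20) and with the next brightest (-0.14). In HF+SFC against HF it was inside with the mean (0.19) and the next brightest (0.04), and past it after quantile normalization (0.25).

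Cox8b, the heart and muscle form of subunit VIII, is made in adult striated muscle and brown fat of rodents. It is 1 of the smallest subunits of the complex. Its 1 probe set gave a signal of 39337 on the Control array, 36887 on HF and 40004 on HF+SFC. HF was the low array by a log2 ratio of -0.09, and HF+SFC stood 0.12 above HF, or level with it (0.00) after quantile normalization.

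Cox8a, the ubiquitous form of subunit VIII, read 1705 on the Control array, 1777 on HF and 1768 on HF+SFC. HF and HF+SFC were level and slightly above Control. Another probe set of Cox8a gave 1484, 1584 and 1425, where HF was again the high array. The third, a dim one, gave 52.1, 27.9 and 8.48, with both high-fat arrays low, whereas HF was the high array on the brighter probe sets. On the brightest probe sets the Cox8b log2 ratio was below that of Cox8a by 0.15 in HF against Control (-0.15), above it by 0.12 in HF+SFC against HF and close to it in HF+SFC against Control (-0.03). None of these passed the SD between probe sets of 1 gene.

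The promoters of this pair are shown because they are the muscle and ubiquitous forms of 1 subunit with both starts in the RefSeq promoter table of build GRCm38.p6, which listed 7 of the 10 genes, and that of Cox7a1 because it is the other muscle isoform listed. Cox4i1, Cox4i2 and Cox6a2 are the other genes. Each run is the 250 bases before the annotated start, 5′ to 3′ on the strand of the gene, from chr7:140900447-140900696 (minus strand) for Cox8b, chr19:7217617-7217866 (minus strand) for Cox8a and chr7:30183921-30184170 (plus strand) for Cox7a1. Capitals mark the muscle E-box CAGCTG, the ETS core CCGGAA, the NRF-1 core TGCGCA or the TATA box TATAAA, on either strand.
Cox8b: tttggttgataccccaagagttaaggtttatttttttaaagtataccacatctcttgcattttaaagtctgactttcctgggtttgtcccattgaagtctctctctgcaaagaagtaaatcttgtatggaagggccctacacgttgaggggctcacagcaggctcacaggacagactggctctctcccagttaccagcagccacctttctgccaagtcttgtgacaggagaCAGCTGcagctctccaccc
Cox8a: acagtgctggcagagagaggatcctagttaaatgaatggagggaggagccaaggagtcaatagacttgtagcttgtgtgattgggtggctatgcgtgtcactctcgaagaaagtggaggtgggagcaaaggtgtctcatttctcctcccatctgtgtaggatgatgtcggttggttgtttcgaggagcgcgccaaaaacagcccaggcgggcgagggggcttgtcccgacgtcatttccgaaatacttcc
Cox7a1: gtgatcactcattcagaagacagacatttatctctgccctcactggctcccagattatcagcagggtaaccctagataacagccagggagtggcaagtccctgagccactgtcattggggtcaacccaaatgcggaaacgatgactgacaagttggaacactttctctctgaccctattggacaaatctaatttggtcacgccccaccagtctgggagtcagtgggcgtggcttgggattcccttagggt

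Counts of motifs and of CpG were made over the 250 bases before and 50 after each start. Cox8b held CAGCTG with its first base at -19 and at 16, where 0 is the annotated start, and TATAAA at 4, so all but the first of these lie past the printed run. It was the only listed gene of the 7 with either motif, and 16.3% and 13.6% of the 32851 promoters of the same length hold them. Every CAGCTG is also a CANNTG, the general E-box, which stood in 6 of the 7 and in 72.3% of all promoters. CCGGAA stood in 4 of the 7, namely Cox6a1, Cox6b1, Cox7a2 and Cox8a, all ubiquitous subunits, against 14.9% of all promoters. In Cox8a its matches straddle or follow the start, from -4 on, and so are not in capitals. TGCGCA stood in Cox6a1 alone (7.76% of all promoters). The GC box GGGCGG stood in 3 of the 7 (35.7%).

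CpG separated the 2 listed muscle isoforms from the rest. Cox8b had 2 CpG and Cox7a1 had 7, where the median promoter has 7. The 5 others had from 17 in Cox6b1 to 32 in Cox6a1, with 19 in Cox8a and in Cox7a2l and 20 in Cox7a2. Only 23.3% of promoters have as few CpG as Cox8b, and 91.4% have no more than Cox6a1. A match is a description of the letters and was not tied to any signal, and methylation and factor binding were not measured.

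Cox7a1 is the heart and muscle form of subunit VIIa, which sits where complex IV meets its partner in dimers and supercomplexes. On its 1 probe set the signal was 21661 on the Control array, 20079 on HF and 20466 on HF+SFC. Control was the high array and both high-fat arrays were lower, by log2 ratios of -0.11 and -0.08. HF+SFC was 0.03 above HF, but 0.03 below it (-0.03) after quantile normalization, so the order of the high-fat arrays was not settled.

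Cox7a2, the ubiquitous form of subunit VIIa, read 38849 on the Control array, 36598 on HF and 40029 on HF+SFC. Its further probe set gave the same order with a wider swing, at 20648, 18698 and 22537, or 1.21-fold in HF+SFC against HF. HF was the low array on both. The Cox7a1 log2 ratio differed from that of Cox7a2 by -0.02 in HF against Control, -0.10 in HF+SFC against HF and -0.13 in HF+SFC against Control, all inside the SD between probe sets. Here the muscle isoform was the one below its Control signal in HF+SFC, and the ubiquitous one was above it except after quantile normalization or median centring.

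The 3 muscle to ubiquitous pairs thus did not share 1 pattern in every comparison. On the brightest probe sets all 3 differences were below 0 in HF against Control, from -0.27 to -0.02. With the mean of all probe sets that of VIIa turned to 0.01 and that of VIII to 0.16, and with the next brightest that of VIIa was 0.03. In HF+SFC against HF, those of subunits VIa and VIII were above 0 and that of VIIa below, and in HF+SFC against Control 1 was above 0 and 2 were below. Taken as groups, the 3 muscle isoforms had median log2 ratios of -0.11, 0.12 and 0.00 in HF against Control, HF+SFC against HF and HF+SFC against Control. The 5 ubiquitous subunits Cox4i1, Cox6a1, Cox6b1, Cox7a2 and Cox8a had medians of -0.06, 0.13 and 0.04. In HF against Control all 3 muscle isoforms and 3 of the 5 ubiquitous subunits were lower. In HF+SFC against HF all 3 and 3 of the 5 were higher, but only Cox6a2 of the muscle isoforms after quantile normalization.

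**Figure D3:**
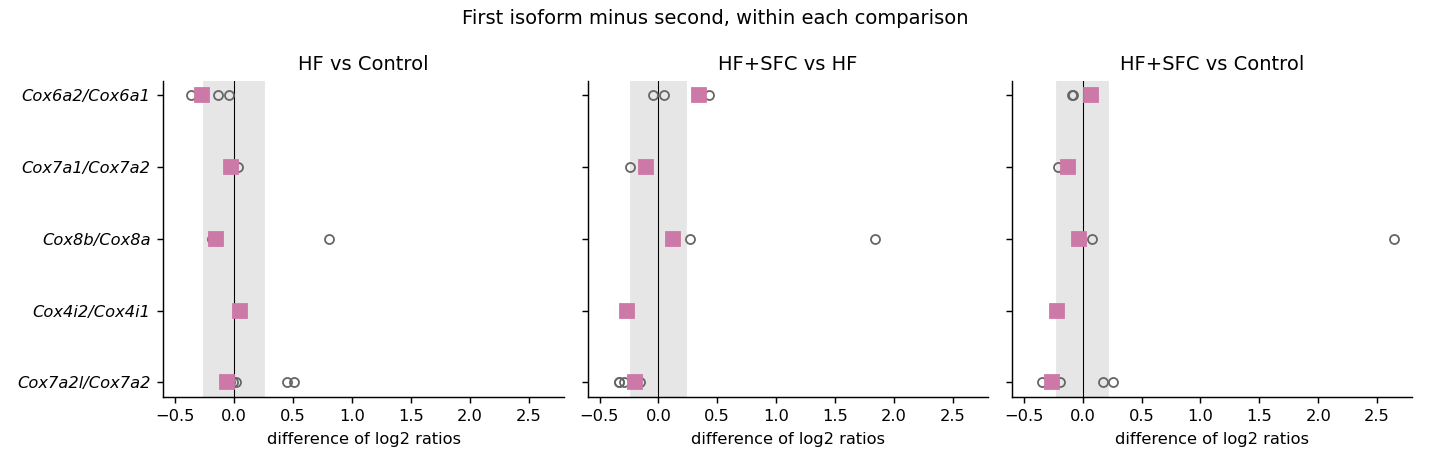
Difference of log2 ratios (horizontal, first gene of the pair minus the second) in the 3 comparisons. Squares rest on the brightest probe sets, circles on the other combinations of probe sets, and the grey band spans 1 SD of the difference between probe sets of the same gene on either side of 0. The Cox6a2 to Cox6a1 square lies at -0.27 and at 0.34 in the first and second panel, outside the band, and the far Cox8b to Cox8a circles, up to 2.64, come from the dim Cox8a probe set.

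Cox4i1, the ubiquitous form of subunit IV, is the nuclear subunit that joins the catalytic core early in assembly and carries a site for ATP. Its signal was 33798 on the Control array, 32417 on HF and 35940 on HF+SFC. HF was the low array, 0.959-fold of Control, and HF+SFC the high one, 1.11-fold of HF and 1.06-fold of Control. The order of HF+SFC and Control was lost with median centring, where the log2 ratio was -0.01.

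Cox4i2, an oxygen-responsive form of subunit IV known from lung, vessel wall and pericytes, was dim in this muscle. It read 103 on the Control array, 102 on HF and 94.0 on HF+SFC on 1 probe set, against array medians of 63.6, 67.4 and 68.0. Control and HF were level and HF+SFC was low, by a log2 ratio of -0.12 to HF. Its log2 ratio lay below that of Cox4i1 by 0.27 in HF+SFC against HF (-0.27) and by 0.22 in HF+SFC against Control (-0.22). In HF against Control it was 0.05, or -0.05 after quantile normalization, where the others shrank to -0.15 and -0.19. The SD between probe sets was taken in genes brighter than Cox4i2, so it sets no yardstick for this pair.

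Genes of the cells known to make Cox4i2 moved in part with it. Ndufa4l2, a mitochondrial protein of pericytes, read 346, 424 and 293 in Control, HF and HF+SFC, and Higd1b, another pericyte gene, 278, 320 and 259. Both had HF+SFC as the low array, as Cox4i2 did, whereas Rgs5, the brightest pericyte marker, read 18638, 19000 and 20303. Of 9 pericyte markers, 7 were higher and 2 lower in HF against Control, and 6 higher and 3 lower in HF+SFC against HF. Their summed signal was 38470, 38329 and 40990, and that of 6 smooth muscle markers 13786, 15171 and 13101. The part of these cells in the Cox4i2 signal was not tested.

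Cox6b1, the ubiquitous form of subunit VIb on the intermembrane side near the cytochrome c site, read 38631 on the Control array, 35756 on HF and 39812 on HF+SFC. HF was the low array, and the further probe set had the same order at 17462, 16450 and 17841. The log2 ratios of the brightest probe set were -0.11 and 0.16 in HF against Control and HF+SFC against HF, and those of the other -0.09 and 0.12. Its testis form, Cox6b2, was dim at 36.6, 89.5 and 88.1.

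Cox7a2l, also called SCAF1, is a relative of subunit VIIa that links complex III to complex IV in supercomplexes. In C57BL/6J mice its protein is a short form. The signal was 6832 on the Control array, 6161 on HF and 5880 on HF+SFC, so Control was the high array and HF+SFC the low one. The next probe set gave 6511, 5977 and 5878, in the same order. The third gave 4266, 5493 and 5260, with Control as the low array.

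Cox7a2l was the lowest of the 10 genes in HF+SFC against Control, at 0.861-fold (log2 ratio -0.22), and the only 1 lower there by 1.1-fold, as 9.67% of bright genes were. Against Cox7a2 its log2 ratio was -0.06, -0.20 and -0.26 in the 3 comparisons. The last passed the SD between probe sets, but it was inside when designs open to several transcripts, such as the brightest of Cox7a2l, were left out (-0.19), after quantile normalization (-0.20) and with the mean of all probe sets (-0.11). Over the 6 combinations of probe sets, the difference in HF+SFC against HF was below 0 in all 6. In HF+SFC against Control it was below 0 in 4, and the other 2 came from the third Cox7a2l probe set.

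At 1.1-fold, a limit added after the values were seen, the genes lower in HF than in Control were Cox6a2 and Cox7a2l, 2 of 10, beside 21.8% of bright genes. The genes higher in HF+SFC than in HF were Cox4i1, Cox6a2 and Cox6b1, 3 of 10, beside 20.5% of bright genes and 39.7% of the 184 brightest. After quantile normalization these 3 had log2 ratios of 0.03, 0.13 and 0.03, all under 1.1-fold, and Cox7a2l in HF against Control, at -0.13, was under it too. By array order, HF was the lowest array for 6 of the 10 genes, namely Cox4i1, Cox6a2, Cox6b1, Cox7a1, Cox7a2 and Cox8b, against 50.2% of bright genes. All 6 are among the 184 brightest, for which shares by array order were not counted. Cox7a1 lost this order after quantile normalization, and Cox8b was then level between HF and HF+SFC (0.00). HF+SFC was the highest for 5, namely the same genes without Cox7a1, against 42.9%. Of these 5, only Cox4i1 stayed above Control after quantile normalization, and none did with median centring. HF was the highest array for Cox6a1 and Cox8a, and Control was the highest for Cox4i2, Cox7a1 and Cox7a2l.

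**Figure D4:**
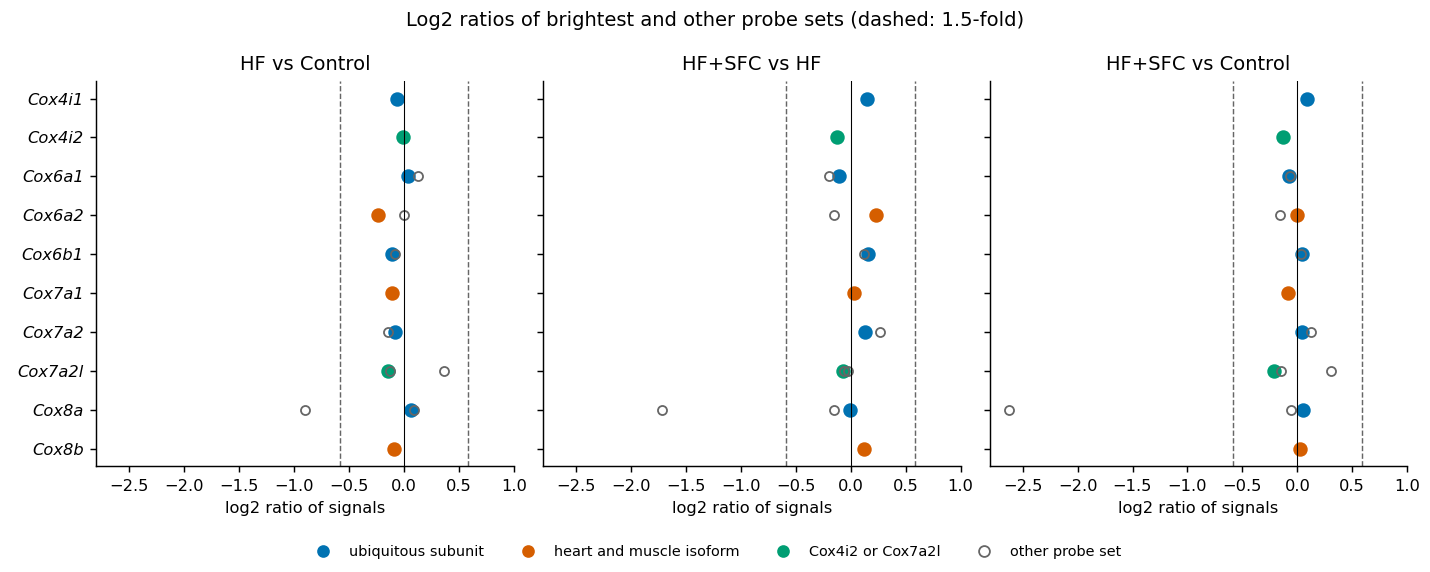
Log2 ratio of signals (horizontal) of every probe set of the 10 genes in the 3 comparisons, with dashed lines at 1.5-fold. Filled points are the brightest probe sets, coloured by kind of isoform, and open circles the others. Every filled point lies between -0.23 and 0.23, and the open circles past the dashed lines, at -0.90, -1.72 and -2.62, all belong to the dim Cox8a probe set. Quantile normalization, not drawn, moves the median of the filled points of the middle panel from 0.07 to -0.01.

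Of the other subunits, 4 were bright, and 3 of these had the HF array low on their brightest probe set. Cox5b, the zinc-binding subunit, read 38423 on the Control array, 36506 on HF and 41048 on HF+SFC, Cox6c 34491, 32557 and 35889, and Ndufa4, first assigned to complex I, 27682, 25957 and 29314. On the deposited signals of these probe sets HF was the low and HF+SFC the high array. Cox4i1, Cox6a2, Cox6b1, Cox7a2 and Cox8b had the same order before rescaling. A further bright probe set of Cox6c had the reverse order, at 25078, 26550 and 24487. Cox5a, which binds a thyroid hormone metabolite, had Control as the low array, at 36507, 37791 and 37853. Its next probe set, at 34404, 32911 and 36253, had HF as the low one. The third, also bright, again had Control as the low array, at 31165, 34358 and 33010. The testis form Cox8c read 198, 505 and 432, or 2.55-fold in HF against Control, and its further probe set read 19.2, 73.8 and 55.6. The testis form Cox7b2 was below array medians, at 15.0, 30.5 and 1.14. The brighter of the 2 probe sets annotated with Cox7c alone was near them, at 61.3, 93.9 and 113. Whether those 2 report the main Cox7c transcript was not checked, so they do not give its level in this muscle. Cox7b and the 3 mitochondrially encoded core subunits were not analysed here.

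Among 24 assembly factors, 12 were higher and 12 lower in HF against Control, and 16 higher and 8 lower in HF+SFC against HF, with medians of -0.00 and 0.04. Sco2, which delivers copper to the core, was the lowest of them in HF against Control, at 493, 263 and 360, or 0.534-fold. That rests on 1 probe set far below the bright limit, and 12.2% of all genes were lower by 1.5-fold or more there. Coa6, another factor of copper delivery, was the highest assembly factor in that comparison among those above the median signal, at 2509, 2961 and 3402. Cycs, the electron donor cytochrome c, read 44907, 47245 and 47152, so it did not share the low HF signal of the bright isoforms. Ppargc1a, a coactivator of mitochondrial biogenesis, read 2991, 2515 and 1803. It was the lowest of 14 measured regulators in HF+SFC against HF, and those had a median log2 ratio of -0.02 there.

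Subunits of the other complexes were also mostly low on the HF array. Of 33 complex I subunits 29 were lower in HF (median -0.08 against Control) and 30 higher with SFC added (median 0.12 against HF). For 13 subunits of complexes II and III these counts were 12 (-0.10) and 13 (0.14), and for 14 of complex V 11 (-0.05) and 14 (0.12). All 10 cytochrome oxidase genes, counted in the same way without a limit of brightness, had 8 lower (-0.09) and 6 higher (0.07). The 8 bright ones had 7 lower (-0.10) and 6 higher (0.12). Among the bright genes of the array, 59.8% were lower and 67.1% higher in these comparisons, and among the 184 brightest 69% and 85.9%. No difference between complexes was tested.

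Markers of the cell types in the muscle also moved between arrays. Of the fast fibre markers, all 15 were lower in HF against Control (median -0.13) and all 15 higher in HF+SFC against HF (0.21), beside 69% and 85.9% of the 184 brightest genes, with summed signals of 678474, 619062 and 727560. Slow fibre markers, of fibres rich in mitochondria, were lower in 10 of 12 (-0.44) and then higher in 9 of 12 (0.36), with sums of 103010, 75709 and 95944. The slow myosin Myh7 read 8784, 6099 and 8490, the fast oxidative myosin Myh2 35478, 32879 and 38417, and the fast myosins Myh1 and Myh4 37356, 37131 and 39778 and 49066, 44594 and 51107. On their brightest probe sets all 4 myosins had HF as the low array, as the 3 muscle isoforms did. Myh1 was nearly level between Control and HF there (log2 ratio -0.01). Its next probe set, also bright, had Control as the low array, at 30322, 33997 and 37102. In bulk muscle fewer cells of a type and less RNA per cell cannot be told apart.

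Several lists of non-muscle markers were mostly higher in HF. All 8 measured adipocyte markers were higher in HF than in Control (median 0.60), with sums of 28438, 39049 and 35279, and all 8 fibroblast and matrix markers (0.50), with sums of 33683, 43489 and 42153. Leukocyte markers were higher in 7 of 9 (0.31), with sums of 3414, 4220 and 4079. Endothelial markers were higher in 5 of 8 (0.02), with sums of 5968, 5925 and 6147. Of 7 brown adipocyte markers 6 were higher in HF, but their sum was small at 629, 721 and 732. Ucp1, which defines that cell type, was at 32.7, 62.3 and 41.8, below the median of each array. The part of fibre type or of other cells in the isoform signals was not tested. RNA control ratios moved too: for actin the 3′ over 5′ signal came to 1.09 on the Control array, 1.52 on HF and 1.15 on HF+SFC, and for Gapdh to 0.842, 0.832 and 0.820, and their part was not tested.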

How the data were processed

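One pooled gastrocnemius sample per group was hybridised to 1 Affymetrix array, from 100 ng of total RNA. The values the authors deposited are linear intensities; MAS5 is named, with no version, in the submitters' processing notes. No detection calls were used. Probe sets were named from the platform annotation, older symbols were replaced where the gene ID stood in a RefSeq table of GRCm38.p6, and 34741 of 34945 probe sets with 1 symbol matched.

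Log2 ratios were taken between arrays within the brightest probe set, with no offset, and pair differences as differences of log2 ratios. With 1 array per group no test was run, and the number of arrays limits the precision. The genes and lists were chosen with earlier results of these data known. Named genes were all isoform genes and complex IV subunits, the highest and lowest ratios of the other lists among genes above the median signal, and defining myosin, pericyte and brown adipocyte genes. Alternatives were other probe sets, 3 scalings, an offset of 50 and other fold limits. Scripts used Python 3.11.15 with pandas 2.3.3 and numpy 2.4.6 and were tested on simulated data.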

Additional observations from a re-analysis of the deposited data

How the results depend on the processing

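Of the 336 medians, pair differences and single gene ratios recomputed under the alternatives, 328 stayed within the SD between probe sets of 1 gene. The other 8 moved further. Part of the 328 could not move, so that count overstates how stable the values were. Centring shifts all log2 ratios of a comparison alike, so it cannot change a pair difference. Cox4i1, Cox4i2, Cox7a1 and Cox8b have 1 probe set each. The choice of probe set thus left their ratios, and the Cox4i2 to Cox4i1 difference, unchanged. The SD between probe sets of 1 gene was about as large as the largest single gene ratios on the brightest probe sets, so a value could change sign within it. Among values within it, 8 of 30 single gene ratios changed sign with median centring, 5 of 30 after quantile normalization and 0 of 30 with the offset. With the next brightest probe set, 5 of 17 medians and pair differences did. With the mean of all probe sets, the Cox8b to Cox8a difference became 0.16 in HF against Control, 0.74 in HF+SFC against HF and 0.90 in HF+SFC against Control, and 1 gene, Cox8a, was at least 1.5-fold lower in each of the last 2 comparisons; these values hold its dim probe set. With the next brightest probe set, the Cox6a2 to Cox6a1 difference in HF+SFC against HF was 0.04, against 0.34. At 1.1-fold, added after seeing the data, 2 genes were lower in HF than in Control, 3 higher in HF+SFC against HF and 1 lower in HF+SFC against Control, against 0 at 1.5-fold. The median log2 ratio of the 10 genes stayed below 0 in HF against Control under every alternative run, from -0.17 (with median centring, where the median of all genes was -0.08) to -0.04. It ranged from -0.01 to 0.07 in HF+SFC against HF and from -0.08 to 0.02 in HF+SFC against Control, so neither direction was settled. No paired analysis was possible because each group had 1 array. The depth of an array is its signal: Cox4i2 and the dim Cox8a probe set lay near or below the array medians, where ratios scatter widely.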
